A study of Mus musculus with 11 samples.

Results

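The tumour necrosis factor (TNF) pathway and its NF-kB feedback loop were followed in mouse heart RNA through 10 genes, chosen by name from a table of 55421 genes: the ligand Tnf, the 3 receptors Tnfrsf1a, Tnfrsf1b and Tnfrsf12a, the 2 NF-kB subunits Nfkb1 and Nfkb2, and the 4 feedback genes Nfkbia, Nfkbiz, Tnfaip3 and Birc3. The RNA came from 11 female C57BL/6J mice, 8 weeks old, on day 3 after surgery. A permanent tie around the left coronary artery's anterior descending branch caused a myocardial infarction (MI) in 8 mice, whose infarct was collected along with the border zone. Of these, 4 mice carried a minipump with GI254023X (A10i, 100 mg/kg), a hydroxamate that blocks the sheddase ADAM10 (mice A116, A117, A119 and A120), and 4 received the solvent DMSO (A105, A127, A128 and A129). The control group held 3 sham-operated mice (S1, S2 and S3), which also received DMSO and gave heart tissue without an infarct. All 3 groups were of 1 inbred strain without a genetic change, and whole tissue was sequenced. Fewer cells of a type and less RNA per cell therefore cannot be told apart in any value below.

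TNF is made as a membrane protein and released by shedding enzymes, chiefly ADAM17. It binds 2 receptors, TNFR1 (Tnfrsf1a), which is present on most cells, and TNFR2 (Tnfrsf1b), which is found mainly on immune and endothelial cells. Fn14 (Tnfrsf12a) is the receptor of the related ligand TWEAK. The receptors recruit adaptors that activate the IkB kinases, IkB is degraded, and NF-kB dimers enter the nucleus. NF-kB then switches on genes that act back on the pathway, and not all of them are brakes. Nfkbia encodes IkB-alpha, which takes NF-kB out of the nucleus again. Tnfaip3 encodes A20, an enzyme that edits ubiquitin chains at the receptor, and Birc3 encodes the ubiquitin ligase cIAP2. Nfkbiz encodes the nuclear IkB-zeta, which helps NF-kB at a subset of targets. In the infarcted heart the pathway is known for its part in inflammation and in remodelling.

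The stretches upstream of the feedback genes are shown because this loop runs through NF-kB binding sites there. Upstream windows of 250 bases from RefSeq (GRCm38.p6, the assembly also called mm10) were matched for 8 of the 10 genes, 11 windows in all, since Nfkb2 has 3 listed starts and Tnfaip3 has 2. Nfkb1 and Nfkbiz had no entry. The kappaB consensus, searched on both strands, lay in 5 of the 11 windows, against 7.25% of 32851 windows of the same length: once upstream of Nfkbia, in 1 of the 2 Tnfaip3 windows and in all 3 Nfkb2 windows. The windows are not independent, since those of Nfkb2 starts 2 and 3 share bases. The bases that follow Nfkb2 start 2 were not found in an annotated Nfkb2 transcript. The Tnfaip3 window with matches lies largely within the annotated gene, upstream of an inner start. The AP-1 motif TGANTCA lay in 2 of the 11 windows, 1 of Tnfaip3 and 1 of Nfkb2, against 6.75% of all. A match is a description of letters and not a bound site. Capitals mark the matches, each line reads 5′ to 3′ on the gene's strand, and positions count back from the start of transcription. Nfkbia is shown from chr12:55492648-55492897 (minus strand, match from -29 to -20) and Tnfaip3 from chr10:19015411-19015547 (minus strand, AP-1 from -136 to -130, kappaB from -125 to -116 and from -12 to -3). Of Nfkb2, whose upstream bases overlap exons of other transcripts, only the matches and their edges are shown, from chr19:46304693-46304713, chr19:46304721-46304736, chr19:46305454-46305473, chr19:46305480-46305496 and chr19:46305700-46305719 (plus strand). The window of start 2 holds a kappaB match from -236 to -227 and the AP-1 match from -210 to -204. In the first Nfkb2 stretch (start 1, distal), a pair of kappaB matches that overlap by all but 1 base is printed as 1 run. Tnf is shown from chr17:35202008-35202257 (minus strand) as a member with neither motif in its window.
Nfkbia: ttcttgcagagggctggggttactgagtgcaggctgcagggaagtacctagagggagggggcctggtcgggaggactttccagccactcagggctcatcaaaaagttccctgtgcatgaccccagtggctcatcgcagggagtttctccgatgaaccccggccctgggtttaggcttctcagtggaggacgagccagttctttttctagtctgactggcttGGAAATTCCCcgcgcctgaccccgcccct
Tnfaip3: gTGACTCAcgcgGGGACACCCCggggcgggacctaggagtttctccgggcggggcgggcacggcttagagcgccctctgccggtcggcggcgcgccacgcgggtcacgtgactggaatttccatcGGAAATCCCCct
Nfkb2 (start 1, distal): gtcacGGGAATTCCCCccctc
Nfkb2 (start 1, proximal): cgaaaGGGGCTTTCCc
Nfkb2 (start 2, kappaB): cggcaGGAATGTCCCcacaa
Nfkb2 (start 2, AP-1): ctgggTGAATCAgccgt
Nfkb2 (start 3): ttttcGGGACTTTCCtaagc
Tnf: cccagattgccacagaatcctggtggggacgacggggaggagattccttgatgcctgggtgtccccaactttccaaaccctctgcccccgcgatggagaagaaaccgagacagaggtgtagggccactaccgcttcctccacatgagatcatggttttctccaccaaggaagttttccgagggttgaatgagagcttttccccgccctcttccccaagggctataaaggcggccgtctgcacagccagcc

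**Figure D1:**
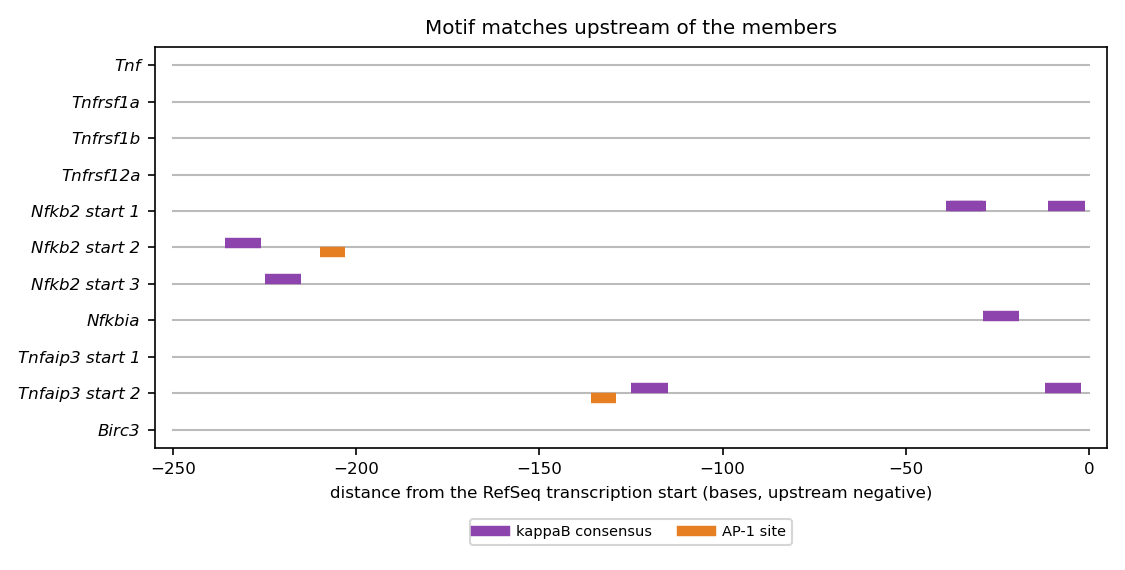
Positions of the kappaB consensus (purple) and of the AP-1 motif (orange) in the 11 windows of 250 bases upstream of 8 members, with the distance from the start of transcription in bases on the x axis and 1 line per window. The matches lie in the 3 Nfkb2 windows, the Nfkbia window and 1 of the 2 Tnfaip3 windows.

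Between 21702623 and 29511768 reads were counted per library. Values per mouse are given as normalized counts, which are counts scaled to the mean effective library size of the 11 libraries, and the differences are log2 fold changes from edgeR's quasi-likelihood test with their standard error (SE). A gene was called at an adjusted p below 0.01. Summed over 12 cardiomyocyte markers, the level was 2748690 to 2815840 in sham mice, 1256340 to 1889310 with DMSO and 1585510 to 2173490 with A10i, so heart muscle RNA was present in every library. Summed over 18 macrophage and monocyte markers, it was 9527 to 10425 in sham, 22652 to 49153 in DMSO and 23893 to 55351 in A10i mice, and over 20 neutrophil markers 148 to 186, 3052 to 6875 and 981 to 2347. Of the neutrophil markers, Ly6g, Elane, Trem1, Stfa2l1 and Mrgpra2b had 0 counts in the sham mice, and Elane had 0 in all mice. The part of these cell markers in the results that follow was not tested.

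Infarction went with higher RNA of 8 of the 10 genes. Against sham mice, Tnf, the 3 receptors, Nfkb2, Nfkbiz, Tnfaip3 and Birc3 rose in DMSO mice, and the same 8 genes rose in A10i mice, with no member lower in either comparison. Among all genes tested, 12.9% were called higher and 9.6% lower in DMSO against sham mice (17117 genes), and 13.7% higher and 9.11% lower in A10i against sham mice (16971 genes). The 8 genes were also those in which every infarcted mouse of a group lay above every sham mouse, which held for 25.1% of genes in DMSO and 24.8% in A10i mice, while 23.6% and 23.5% of genes had every infarcted mouse below. Nfkb1 and Nfkbia overlapped the sham range. The median log2 fold change of the 10 genes was 1.03 in DMSO and 0.90 in A10i mice, against 0.00 and -0.01 over all genes. Both comparisons use the same 3 sham mice, so their values are set side by side and not counted as 2 independent results. When libraries were scaled by their size only and not by TMM, the calls over all genes changed from 2215 higher and 1643 lower to 3330 and 708 in DMSO, and from 2333 and 1546 to 3436 and 577 in A10i mice, while 8 of the 10 genes were again called higher in each.

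Tnf (chr17:35199381-35202007, minus strand) was the rarest member. Its normalized count was 3.32, 1.91 and 5.16 in sham mice S1, S2 and S3, 33.4, 25.7, 23.8 and 26.1 in DMSO mice A105, A127, A128 and A129, and 24.3, 8.90, 15.8 and 11.5 in A10i mice A116, A117, A119 and A120. No sham value reached the lowest infarcted one. The log2 fold change was 2.94 (SE 0.38, edgeR adjusted p = 0.000507) in DMSO and 2.11 (SE 0.52, edgeR adjusted p = 0.00973) in A10i mice. Because sham mice held only 2 to 5 raw counts each, the ratio was also taken from the summed counts, 115 in DMSO and 10 in sham mice, which gave 7.87 with an exact 95% interval of 4.13 to 16.8. For A10i mice, with 58 counts, it was 4.44 (2.25 to 9.74). These intervals cover counting error only. Against sham mice Tnf passed the filter on low counts only through the infarcted mice, where it is high. The A10i call was the least secure: limma-voom gave an adjusted p of 0.0137, and without S1, S2 or S3 edgeR gave 0.0387, 0.0497 and 0.0220. Without A116, A119 or A120 Tnf fell under the filter on low counts and was not tested, so of the 7 fits that left out a mouse only the one without A117 called it (edgeR adjusted p = 0.00604).

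The 3 receptor genes rose in both infarcted groups. Tnfrsf1a (chr6:125349362-125362484, plus strand) stood at 964, 985 and 958 normalized counts in sham, at 2148, 1900, 2159 and 2370 in DMSO and at 2185, 2242, 1595 and 1870 in A10i mice. The sham values were tight, and the lowest infarcted heart, A119, lay well above them. Its fold change was 2.21 in DMSO (log2 1.14, SE 0.09, edgeR adjusted p = 5.6e-05) and 2.04 in A10i mice (log2 1.03, SE 0.11, edgeR adjusted p = 0.000286). Tnfrsf1b (chr4:145213463-145246870, minus strand) had 292, 274 and 316 normalized counts in sham, 635, 711, 580 and 1012 in DMSO and 1013, 642, 581 and 616 in A10i mice. A single mouse of each infarcted group, A129 and A116, stood far above the other 6, which lay between 580 and 711. The same mice had the highest macrophage marker sums, 49153 and 55351, against 22652 to 32575 in the other 6. They also had the highest fibroblast marker sums, 191181 and 259493, and the lowest cardiomyocyte marker sums of their groups, 1256340 and 1585510. The part of these sums in the Tnfrsf1b values was not tested. The fold change of Tnfrsf1b was 2.49 in DMSO (edgeR adjusted p = 0.000921) and 2.43 in A10i mice (edgeR adjusted p = 0.00144).

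Tnfrsf12a (chr17:23675445-23677468, minus strand) had the widest relative spread of the members among DMSO mice, with a coefficient of variation of 38.0%. Sham mice had 851, 886 and 724 normalized counts, DMSO mice 4297, 2154, 1938 and 2831, and A10i mice 2142, 1252, 2378 and 1548. DMSO mouse A105 was highest by a wide margin, and A117 was the lowest infarcted heart. The log2 fold change was 1.77 (SE 0.26, edgeR adjusted p = 0.00128) in DMSO and 1.16 (SE 0.21, edgeR adjusted p = 0.00356) in A10i mice. Without a filter on low counts both calls were lost (edgeR adjusted p = 0.0155 and 0.0330), and without A116 the A10i call was lost (edgeR adjusted p = 0.0341). The fit of all 11 libraries did not call it in A10i mice either (edgeR adjusted p = 0.0110).

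The 2 subunit genes encode precursors, p105 (Nfkb1) and p100 (Nfkb2), which are processed to the DNA-binding p50 and p52. Nfkb1 (chr3:135584655-135691547, minus strand) was at 1444, 1525 and 1431 normalized counts in sham, 1458, 1583, 1584 and 1621 in DMSO and 1644, 1477, 1631 and 1537 in A10i mice. All 3 groups overlapped, and the 95% interval of its log2 fold change ran from -0.07 to 0.25 in DMSO and from -0.04 to 0.25 in A10i mice (edgeR adjusted p = 0.358 and 0.225). Nfkb2 (chr19:46304320-46312385, plus strand), which encodes the substrate of the non-canonical arm of the pathway, was at 667, 709 and 725 normalized counts in sham, 910, 922, 930 and 989 in DMSO and 991, 879, 954 and 835 in A10i mice. It rose 1.34-fold in DMSO (log2 0.42, SE 0.08, edgeR adjusted p = 0.00239) and 1.31-fold in A10i mice (log2 0.39, SE 0.08, edgeR adjusted p = 0.00351). The antisense genes AC114539.1 and Psd overlap Nfkb2, and Gm43430 overlaps Nfkb1 on its own strand. The strand setting of the counting is not given in the sources used here, so reads of these partners cannot be told apart from those of the members.

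Of the feedback genes, Nfkbiz rose most and Nfkbia did not pass the test. Nfkbiz (chr16:55811375-55838899, minus strand) had 124, 132 and 126 normalized counts in sham, 357, 371, 375 and 498 in DMSO and 411, 292, 301 and 266 in A10i mice. A129 was the highest DMSO mouse and A116 the highest A10i mouse, as for Tnfrsf1b. The fold change was 3.13 in DMSO (log2 1.65, SE 0.14, edgeR adjusted p = 9.46e-05) and the log2 fold change in A10i mice was 1.32 (SE 0.16, edgeR adjusted p = 0.000329). Tnfaip3 (chr10:19000910-19015657, minus strand) was at 84.2, 111 and 90.7 in sham, 182, 157, 168 and 212 in DMSO and 164, 155, 147 and 184 in A10i mice. It rose 1.88-fold in DMSO (edgeR adjusted p = 0.00251) and 1.70-fold in A10i mice (edgeR adjusted p = 0.00286), with every infarcted heart above every sham heart.

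Birc3 (chr9:7848699-7873186, minus strand) was at 257, 272 and 255 normalized counts in sham, 391, 380, 400 and 426 in DMSO and 396, 356, 322 and 330 in A10i mice. It rose 1.52-fold in DMSO (edgeR adjusted p = 0.00109) and 1.35-fold in A10i mice (edgeR adjusted p = 0.0070). Nfkbia (chr12:55489410-55492647, minus strand) had 1168, 1318 and 983 normalized counts in sham, 1452, 1279, 1248 and 1495 in DMSO and 1140, 1283, 1183 and 1405 in A10i mice. The sham mice alone spread over 983 to 1318, a range that took in 5 of the 8 infarcted hearts. The log2 fold change of Nfkbia was 0.24 (95% interval -0.01 to 0.49, edgeR adjusted p = 0.113) in DMSO and 0.12 (-0.12 to 0.35, edgeR adjusted p = 0.402) in A10i mice. Of the 3 genes whose upstream kappaB matches are printed above, Tnfaip3 and Nfkb2 thus passed the test and Nfkbia did not, and Tnf, with no match in its window, passed it.

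The calls against sham mice leaned on having all 3 sham mice. Without S1, S2 or S3, 6, 7 and 5 members were called in DMSO mice and 3, 4 and 3 in A10i mice. Nfkb2 lost its call each time, with edgeR adjusted p-values of 0.0124 to 0.0192 in DMSO and 0.0144 to 0.0244 in A10i mice. In A10i mice Birc3 (0.0230 to 0.0350) and Tnfrsf12a (0.0106 to 0.0153) did so too, like Tnf as given above, and Birc3 also without A117 (0.0142) or A120 (0.0120). Tnfaip3 lost its call without S1 or S3 in both groups (0.0167 to 0.0183), and Tnfrsf12a in DMSO mice without S3 (0.0102). Tnfrsf1a, Tnfrsf1b and Nfkbiz were called in every fit that left out a mouse.

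**Figure D2:**
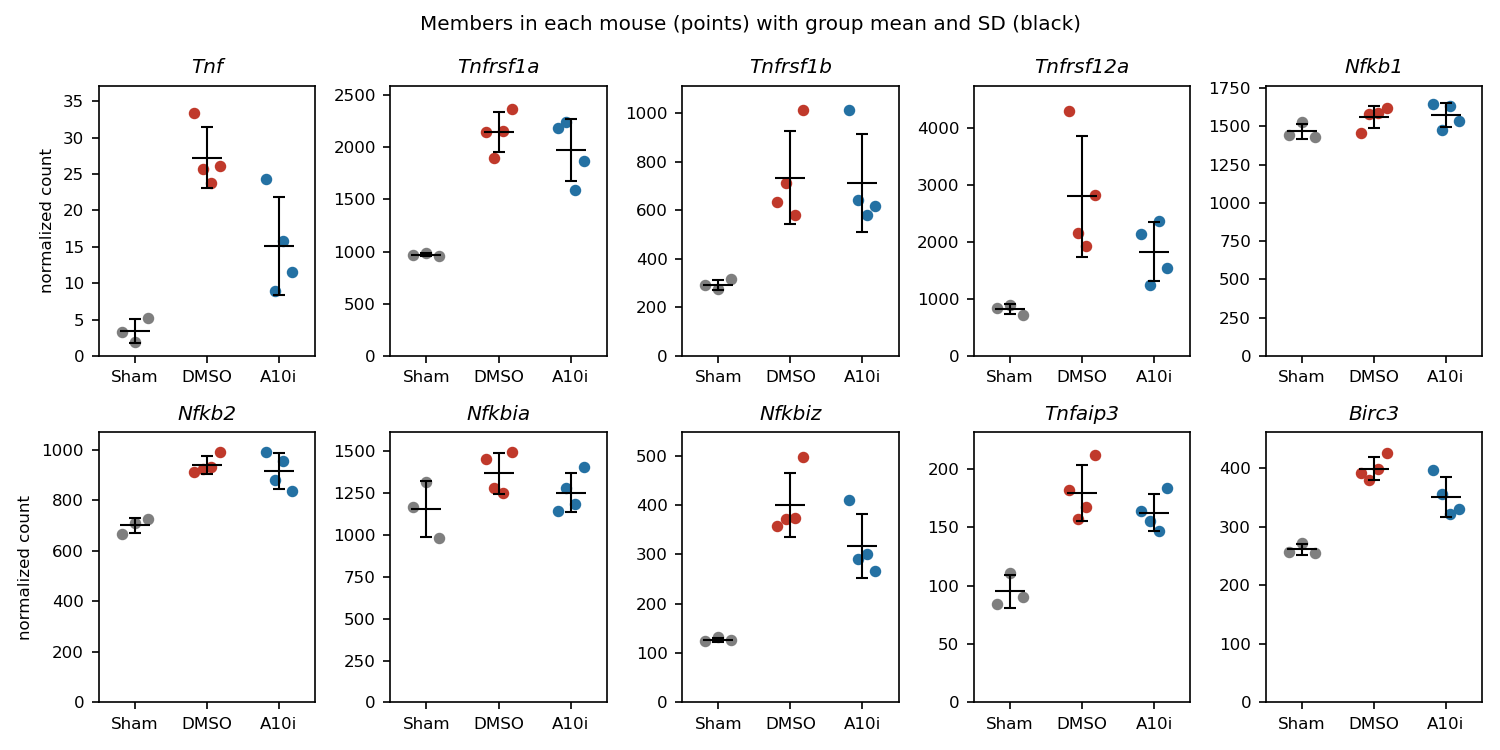
Normalized counts (y axis, from 0) of the 10 members in each mouse of the sham (grey), DMSO (red) and A10i (blue) groups, with the group mean and SD in black (n = 3, 4 and 4). In 8 panels every infarcted mouse lies above every sham mouse; in the Nfkb1 and Nfkbia panels the groups overlap.

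The second question was whether the ADAM10 inhibitor changed the pathway in infarcted hearts, as A10i against DMSO mice. None of the 10 genes was called by edgeR at an adjusted p below 0.01, and over all 16792 genes tested 0% were called. None of the 10 genes was called at 0.05 either. By an unadjusted p below 0.05, 1 member, Tnf, was lower and 0 were higher, against 6.73% of all genes lower and 7.1% higher. DESeq2 and limma-voom called 0 members at an adjusted p below 0.01, and DESeq2 had 2 members, Tnf and Tnfrsf12a, with an unadjusted p below 0.05, both lower. DESeq2 called 1.25% of the 18151 genes to which it gave an adjusted p, while limma-voom called 0%. By its unadjusted p, 4.03% of 31656 genes were lower and 3.97% higher. That set was not filtered on low counts as for edgeR, so these shares and the 6.73% and 7.1% have unlike bases. The estimates were below 0 for 9 genes and above 0 for Nfkb1, with a median log2 fold change of -0.13 against 0.00 over all genes. In all 10 genes the 2 groups overlapped. Over all genes, 4.11% had every A10i mouse below every DMSO mouse and 4.01% had every A10i mouse above. With shares this low, an overlap in all 10 genes does not set the members apart.

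Tnf averaged 15.1 ± 6.76 normalized counts in A10i and 27.3 ± 4.23 in DMSO mice (SD, n = 4 each). The groups overlapped only through A116, at 24.3, which lay above the lowest DMSO mouse, A128, at 23.8. The log2 fold change was -0.83 (SE 0.31, 95% interval -1.52 to -0.14), with an unadjusted edgeR p of 0.0228 and an adjusted p of 0.274. It ran from -1.16 without A116 to -0.64 without A117, and the unadjusted edgeR p rose above 0.05 when A105, A117 or A120 was left out. Summed counts of 58 and 115 gave a ratio of 0.564 with an exact interval of 0.404 to 0.780, which does not include the spread between mice. The immediate early genes, which respond to cell stress within minutes, summed to 12979 to 16424 in A10i, 18637 to 22718 in DMSO and 8534 to 8935 in sham mice over 19 genes, and the neutrophil marker sums given above did not overlap between A10i and DMSO mice either. The part of both in the Tnf values was not tested.

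Tnfrsf12a had the second lowest estimate, a log2 fold change of -0.61 (SE 0.27, 95% interval -1.23 to 0.00), with an unadjusted edgeR p of 0.0501 and an adjusted p of 0.362. It was -0.33 without A105, the highest DMSO mouse. Nfkbiz followed with -0.33 (SE 0.15, 95% interval -0.68 to 0.01), an unadjusted edgeR p of 0.0571 and an adjusted p of 0.379, and this became -0.21 without A129 and -0.48 without A116. Birc3 was at -0.18 (SE 0.09, 95% interval -0.39 to 0.02, edgeR adjusted p = 0.423). For the remaining 6 genes the adjusted p lay between 0.602 and 0.962. Their 95% intervals ran from -0.38 to 0.14 for Tnfrsf1a, from -0.52 to 0.44 for Tnfrsf1b, from -0.14 to 0.17 for Nfkb1, from -0.20 to 0.14 for Nfkb2, from -0.33 to 0.08 for Nfkbia and from -0.44 to 0.16 for Tnfaip3.

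**Figure D3:**
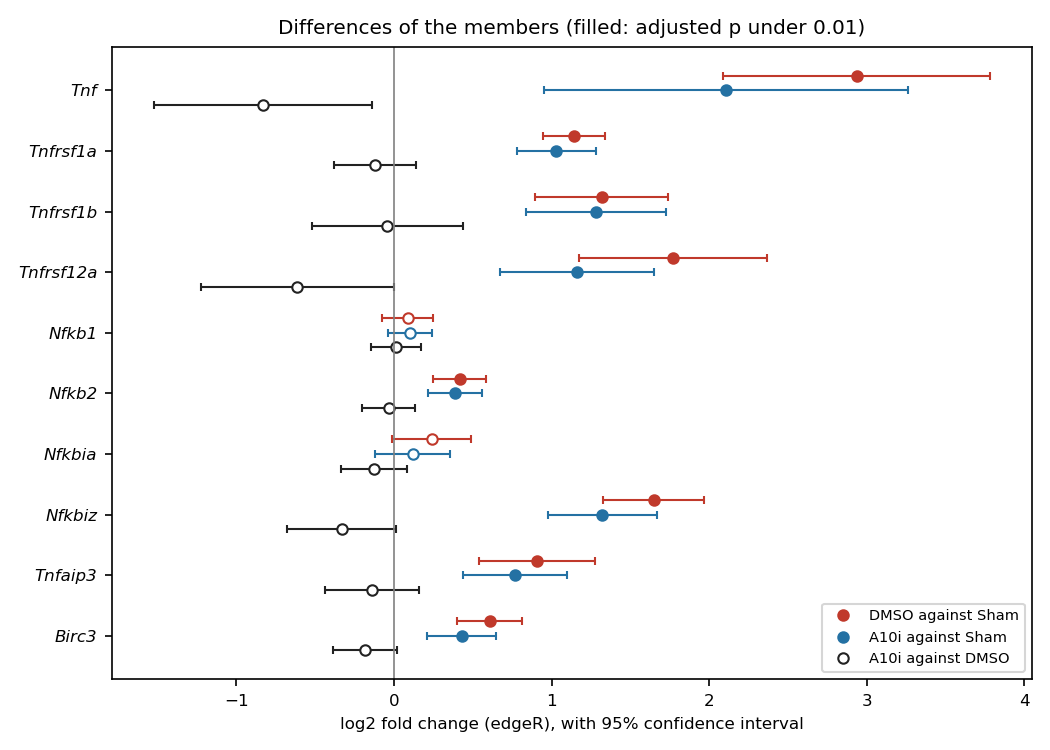
Log2 fold changes of the 10 members (x axis) with 95% confidence intervals for DMSO against sham (red), A10i against sham (blue) and A10i against DMSO mice (black), where filled points have an adjusted p below 0.01. Both comparisons with sham are filled for 8 members, and all 10 black points are open.

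Single mice carried much of the spread between infarcted hearts. A129 had the highest value of the 8 infarcted mice in 5 of the 10 genes, A116 in 3 and A105 in 2, whereas the lowest value fell to A119 in 3, to A117 and A120 in 2 each and to A105, A128 and A116 in 1 each. The mean log2 CPM over the 10 genes was 4.63, 4.47, 4.45 and 4.73 in A105, A127, A128 and A129 and 4.56, 4.21, 4.30 and 4.25 in A116, A117, A119 and A120. A116 thus lay within the DMSO range and the other 3 A10i mice below it. In sham mice the mean was 3.50, 3.55 and 3.53. The difference of the A10i and DMSO means was -0.24, and -0.32 without A116. As a description over the 8 infarcted mice, which share 2 treatment groups, the highest correlations of log2 CPM between members were 0.91 for Nfkbiz with Birc3 and 0.84 for Tnf with Tnfrsf12a.

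**Figure D4:**
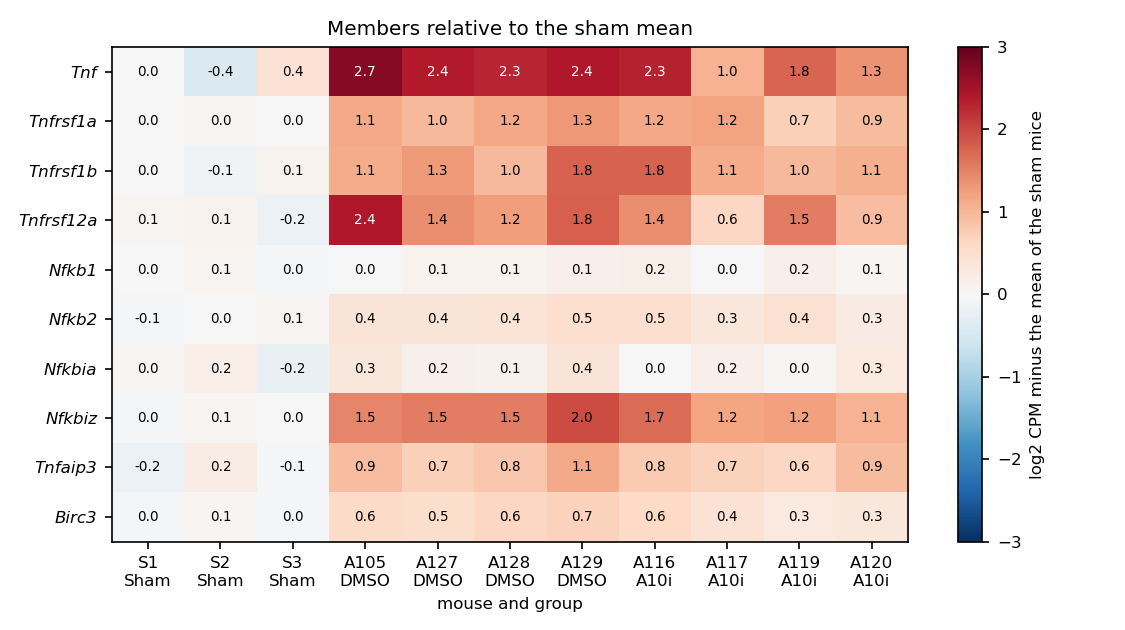
Log2 CPM of each member (rows) in each mouse (columns) minus the mean of the 3 sham mice, from blue (lower) to red (higher). Tnf and Tnfrsf12a are darkest in A105, Tnfrsf1b and Nfkbiz in A129 and A116, and the Nfkb1 and Nfkbia rows stay pale.

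Levels can be ranked between genes only per length, as reads per kilobase of exon scaled to library size (RPKM). In sham hearts Nfkbia led with 28.1 ± 4.08 RPKM (SD, n = 3), followed by Tnfrsf12a at 16.6 ± 1.73 and Tnfrsf1a at 14.6 ± 0.215, which overlapped each other. Then came Nfkb2 at 5.97, Nfkb1 at 4.75, Tnfrsf1b at 3.01, Birc3 at 2.04, Nfkbiz at 0.992, Tnfaip3 at 0.515 and Tnf at 0.0826 RPKM, none of which overlapped its neighbour. In DMSO hearts Tnfrsf12a stood first with 56.8 ± 21.5 RPKM (SD, n = 4), above every value of Nfkbia (33.2 ± 2.99) and Tnfrsf1a (32.4 ± 2.90). The last 2 overlapped, as did Nfkb2 (8.00) with Tnfrsf1b (7.52) and Nfkbiz (3.12) with Birc3 (3.12). Tnf stayed last at 0.650 ± 0.101 RPKM. In A10i hearts the first 3 places were Tnfrsf12a at 37.0 ± 10.5, Nfkbia at 30.4 ± 2.86 and Tnfrsf1a at 29.8 ± 4.54 RPKM, each overlapping the next, and Tnf was again last at 0.361 ± 0.161 RPKM.

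The other genes of the pathway were read from 7 lists, without the members. Of all genes tested against sham, 12.9% rose and 9.6% fell in DMSO mice, and 13.7% and 9.11% in A10i mice. NF-kB target genes moved in largest number after infarction: 19 of 26 tested rose and 0 fell in DMSO mice (median log2 fold change 2.58), and 19 of 27 rose and 1 fell in A10i mice (median 1.49). In DMSO mice the smallest adjusted p-values went to Ccl2, the monocyte chemokine, which rose 35.2-fold from 19.6 ± 3.41 to 695 ± 132 normalized counts, to the gelatinase gene Mmp9 (18.8-fold) and to the adhesion molecule gene Icam1 (2.41-fold). In A10i mice they went to the neutrophil chemokine gene Cxcl1 (6.15-fold), to the urokinase receptor gene Plaur (7.19-fold) and to Il6, which had a mean of 0.344 normalized counts in sham and 34.1 ± 9.80 in A10i mice. Of these 6 genes 5 rose in both groups, Ccl2 17.3-fold and Icam1 1.96-fold in A10i mice, Cxcl1 13.6-fold and Plaur 14.2-fold in DMSO mice, and Il6. Mmp9 did not pass in A10i mice (5.27-fold, edgeR adjusted p = 0.0113). Gadd45b, a stress response gene, was the target that fell in A10i mice, from 382 ± 133 to 182 ± 29.9 normalized counts, and had a fold change of 0.652 in DMSO mice (edgeR adjusted p = 0.0409). Ccl20, Csf2 and Csf3 had 0 counts in all sham mice, where a library at 0 allows up to 3 counts.

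Among 20 other inhibitors and feedback regulators, 8 rose and 0 fell in DMSO mice, and 4 rose and 0 fell in A10i mice. Over all genes 12.9% rose and 9.6% fell in DMSO mice, and 13.7% and 9.11% in A10i mice. Bcl3, an atypical IkB protein like IkB-zeta, rose 6.01-fold in DMSO and 4.57-fold in A10i mice. Zc3h12a, which encodes the RNase regnase-1, rose 2.00-fold and 1.57-fold. Tnfaip8l2 rose 2.59-fold and 3.72-fold. Tnip2, which encodes an A20-binding protein, rose 1.54-fold in DMSO mice and had a fold change of 1.19 in A10i mice (edgeR adjusted p = 0.150). Of the 3 other subunits, Relb (1.63-fold) and Rela (1.35-fold) rose in DMSO mice, and 0 of 3 passed in A10i mice, where Relb was at 1.43-fold and Rela at 1.14-fold (edgeR adjusted p = 0.0151 and 0.0571). The difference between these counts was not tested.

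Of the other TNF superfamily ligands, 4 of 9 tested rose and 1 fell in DMSO mice, and 2 of 8 rose and 1 fell in A10i mice. The shares over all genes were 12.9% higher and 9.6% lower in DMSO, and 13.7% and 9.11% in A10i mice. Tnfsf10, the gene of the death ligand TRAIL, was the one that fell in both, from 561 ± 17.7 normalized counts in sham to 168 ± 55.3 in DMSO and 314 ± 67.1 in A10i mice. Tnfsf9 rose from 11.4 ± 1.57 normalized counts to 45.8 ± 13.9 in DMSO and 33.0 ± 10.2 in A10i mice. Tnfsf14 rose from 2.70 ± 0.976 to 32.0 ± 16.8 in DMSO and 17.6 ± 10.4 in A10i mice. Tnfsf11, the RANK ligand gene, rose from 0.369 to 15.2 ± 8.32 in DMSO mice, through which it passed the filter on low counts. In A10i mice Tnfsf11 was at 10.7 ± 8.68 but was not tested, so the sets of tested ligands differ between the comparisons. Tnfsf4 and Tnfsf15 had 0 counts in sham mice, Cd40lg in DMSO mice, and Cd70 in sham and A10i mice. Of the other receptors, 6 of 17 rose and 2 fell in DMSO mice, and 6 of 16 rose and 0 fell in A10i mice. Tnfrsf11a, the receptor of the Tnfsf11 product, rose 2.42-fold and 2.35-fold, and the lymphotoxin receptor gene Ltbr 1.54-fold and 1.35-fold. Tnfrsf11b, which encodes the decoy receptor osteoprotegerin, went from 2.04 ± 0.931 to 29.6 ± 10.6 and 30.8 ± 9.16 normalized counts. Tnfrsf21 (0.636-fold) and Tnfrsf19 (0.391-fold) fell in DMSO mice, and were at 0.712-fold and 0.403-fold in A10i mice (edgeR adjusted p = 0.0110 and 0.0148).

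Between receptor and kinase, 4 of 25 adaptor and kinase genes rose and 1 fell in DMSO mice, and 4 rose and 3 fell in A10i mice. The shares that rose are near those over all genes, which were 12.9% higher and 9.6% lower in DMSO and 13.7% higher and 9.11% lower in A10i mice. Ripk3, the kinase gene of necroptosis, rose 4.01-fold and 3.72-fold, and Ripk1 rose 1.69-fold and 1.65-fold. Map3k14, the kinase gene of the non-canonical arm, rose 1.54-fold and 1.46-fold, and Casp8 1.89-fold and 2.05-fold. Ikbkg, the regulatory subunit gene of the IkB kinase, fell to 0.786-fold in DMSO and 0.810-fold in A10i mice, and Map3k7 and Tab3 fell to 0.816-fold and 0.760-fold in A10i mice, against 0.874-fold and 0.929-fold in DMSO mice, where neither passed (edgeR adjusted p = 0.0627 and 0.512). Of 6 genes of the TNF shedding machinery, Rhbdf1 and Rhbdf2 rose in DMSO mice (1.29-fold and 1.33-fold) and Rhbdf1 and Frmd8 in A10i mice (1.24-fold and 1.63-fold). Frmd8 was at 1.61-fold in DMSO mice (edgeR adjusted p = 0.0147) and Rhbdf2 at 1.01-fold in A10i mice (edgeR adjusted p = 0.895).

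In A10i against DMSO mice, 0 other genes of the 7 lists were called by edgeR at 0.01, so they are read by an unadjusted p below 0.05, which 6.73% of all genes passed as lower and 7.1% as higher. Of 27 target genes 16 were lower by this rule and 1 was higher. Over the alternatives tried, 13 to 17 were lower, with 25 to 30 target genes tested. The 7 lists were chosen with earlier results of these data known, so these counts are a description and no independent test. The median log2 fold change of the 27 target genes was -0.45, against 0.00 over all genes. Ier3, an early survival gene, passed an adjusted threshold of 0.05 (1240 ± 85.1 against 2072 ± 268 normalized counts, log2 fold change -0.74, SE 0.10, edgeR adjusted p = 0.0479). The chemokine genes Cxcl2, Cxcl1 and Ccl2 had log2 fold changes of -2.26, -1.15 and -1.03, and the cytokine genes Il1b, Il6 and Lif of -1.82, -1.44 and -0.86. Ptx3, a secreted pattern recognition molecule, had the lowest estimate at -2.39 (SE 0.60, edgeR adjusted p = 0.141). Mmp9 was at -1.84, the endothelial selectin gene Sele at -1.42, Plaur at -0.98 and Ptgs2, the gene of cyclooxygenase 2, at -0.71. Gadd45b (-0.46), Tnfaip6 (-0.45), Tnfaip2 (-0.37) and Icam1 (-0.31) were closer to 0, and Irf1, a transcription factor gene of the interferon response, was the higher one at 0.34. Neutrophils are known to make Mmp9 and Il1b, and the part of the neutrophil marker sums given above in these values was not tested.

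Of the 20 other inhibitors and feedback regulators 6 were lower and 1 higher by the same rule, with 2 to 7 lower over the alternatives. Their median log2 fold change was -0.08. Nfkbid (-0.57) and Bcl3 (-0.40) encode atypical IkB proteins, Tnip2 (-0.37) and Tnip1 (-0.20) A20-binding proteins, Otulin (-0.36) a deubiquitinase and Zc3h12a (-0.35) an RNase, and Pdlim2 was higher at 0.38. Rela (-0.25) was the 1 subunit of 3, and Fadd (-0.40) and Tab3 (-0.29) were the 2 adaptors of 25. Among ligands Eda was lower (-0.64) and Tnfsf10 higher (0.90). For Tnfsf10 every A10i mouse lay above every DMSO mouse, as for 4.01% of all genes tested. The Eda receptor gene Edar was at -0.76, 1 of 17 receptors. Rhbdf2, which encodes a partner of ADAM17 in TNF release, was at -0.40 (440 ± 39.2 against 579 ± 39.2 normalized counts), 1 of 6 shedding genes. The target of the drug, Adam10, had 1461 ± 60.4 normalized counts in sham mice, 1798 ± 419 with DMSO and 1906 ± 281 with A10i. Adam17 had 1231 ± 22.8, 1204 ± 138 and 1347 ± 177, and neither gene was called in any comparison. Against sham mice, the log2 fold change of Adam10 was 0.30 in DMSO (edgeR adjusted p = 0.164) and 0.39 in A10i mice (edgeR adjusted p = 0.0142). For Adam10 every A10i mouse lay above every sham mouse, which held for 24.8% of all genes tested.

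**Figure D5:**
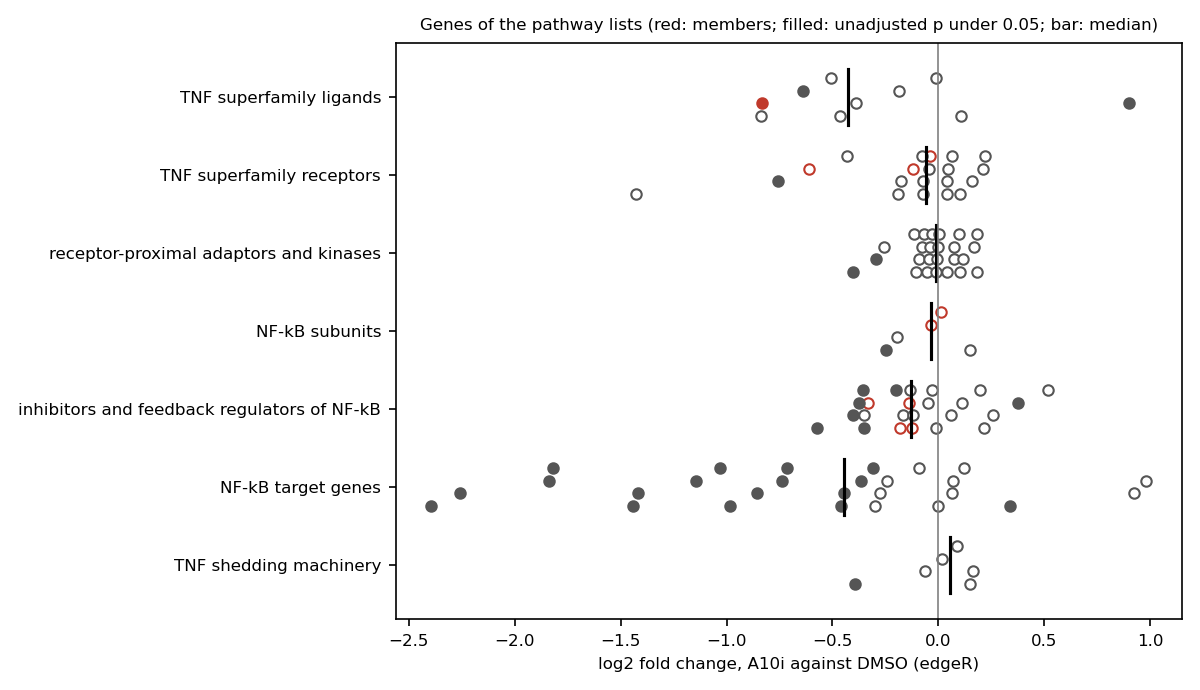
Log2 fold changes in A10i against DMSO mice (x axis) of the tested genes of the 7 pathway lists (rows), with members in red, other genes in grey, filled points for an unadjusted p below 0.05 and a black bar at the list's median with its members included. Most filled points lie left of 0 in the row of NF-kB target genes.

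The genes whose log2 CPM followed that of Tnf most closely over the 8 infarcted mice were Slc35c2 (r = 0.97), Dhx33, Cass4, Ebna1bp2 and Ncs1 (r = 0.95 for the last). For Nfkbia they were Rpl19-ps6 (r = 0.95), a pseudogene that can share reads with its parent gene, Sgk1 (r = 0.95), Unc45a, Wdr45b and Lin7a (r = 0.90 for the last). These correlations describe 8 mice of 2 groups, were picked as the highest of 16792 genes and carry no test.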

How the data were processed

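RNA of the infarct and border zone, or of sham heart, was sequenced from 11 mice. The authors enriched poly(A) RNA, prepared strand-specific libraries, aligned the reads to mm10 with GSNAP and counted them per Ensembl gene with featureCounts 2.0.1 (versions from the submitters' processing notes). The deposited values are raw counts per gene without normalization, and the deposited gene lengths in bases (the only other unit) served for RPKM. The strand setting is not given in the sources used here. Spike-ins (92 rows, 397 counts in all libraries) were left out of library sizes and tests. Gene symbols and positions came from GENCODE M21, which named 55154 of 55421 genes.

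Each pair of groups was compared on its own libraries in R 4.3.3 with edgeR 4.0.16 (filterByExpr, TMM, robust quasi-likelihood F-test, two-sided, Benjamini-Hochberg over all genes tested, threshold 0.01). The code was also run on simulated counts with a single fixed dispersion, where only genes more abundant than Tnf were changed. That run does not cover a gene as rare as Tnf or the unequal spread of the groups. All 10 members passed the filter in all 3 comparisons. Against sham mice, Tnf and other genes scarce in sham mice passed it only through the infarcted mice. Log2 CPM used a prior count of 2. DESeq2 1.42.0 (without the hypothesis weighting of the study), limma-voom (3.58.1), other scalings and filters, a fit of all 11 libraries and leaving out each mouse were the alternatives. Replicates are separate mice and differed by more than counting error (chi-square per degree of freedom 4.04 to 60.8 over 15 pairs), and totals of 21702623 to 29511768 gave Tnf 2 to 31 counts per library. Samples were grouped by their treatment labels.

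The members and lists were chosen with earlier results of these data known. Other genes were named by a rule: an unadjusted p below 0.05 in A10i against DMSO, the 3 smallest adjusted p-values per list and direction against sham, a count of 0 in a whole group, and the 5 genes most correlated with Tnf and Nfkbia. Adam10 and Adam17 were named after their values were seen. The GENCODE exons decided which upstream bases were printed.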

Additional observations from a re-analysis of the deposited data

Results flagged for a closer look

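Of 20 groups of 4 mice checked for a single distant value (10 members in the DMSO and A10i groups), 1 was marked: the normalized count of Nfkbiz in DMSO mouse A129 was 498, whereas the other 3 DMSO mice had 357 to 375. Chance marks about 1 in 20 groups. The same mouse had the highest macrophage and fibroblast marker sums and the lowest cardiomyocyte marker sum of the DMSO group. Without A129, Nfkbiz was still called higher in DMSO against sham mice, and its log2 fold change in A10i against DMSO mice was -0.21.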

How the results depend on the processing

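Against sham mice, 8 members were called higher in both comparisons, and all alternatives that kept every mouse called 7 or 8. Leaving out single mice gave 5 to 8 calls in DMSO and 3 to 7 in A10i mice. The low counts came without a sham mouse: 5 without S3 in DMSO, and 3, 4 and 3 without S1, S2 and S3 in A10i mice, where Tnfrsf1a, Tnfrsf1b and Nfkbiz were called each time. Tnf was not tested with at least 10 counts in every library, nor in A10i mice without A116, A119 or A120. No direction changed against sham. Library size alone moved the median log2 fold change of all genes to 0.21 in DMSO and 0.18 in A10i mice.

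In A10i against DMSO mice, the calls stayed at 0 in all settings. The count with an unadjusted p below 0.05 was 1, against 2 with DESeq2, RLE size factors, library size alone or no filter on low counts, 4 in the fit of all 11 libraries (Tnf, Tnfrsf12a, Nfkbiz and Birc3), 0 with at least 10 counts in every library (Tnf is then not tested) and 0 to 3 without single mice (0 without A117 or A120, 3 without A116). Directions turned where the estimate was near 0: Tnfrsf1b ran from -0.25 to 0.15 and Nfkb2 from -0.071 to 0.0072 over mice left out, and Nfkb1 from -0.019 to 0.041 (-0.0043 with library size alone). The cause was not tested. Over all genes, edgeR called 0, DESeq2 104 higher and 123 lower, the fit without filter 18 and 25, and the joint fit 2 and 9.

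No paired analysis was possible because the groups share no replicate numbers.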

Other observations

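Against sham mice, 12.9% of all genes tested rose and 9.6% fell in DMSO, and 13.7% and 9.11% in A10i mice. Of 19 immediate early genes, 16 rose in DMSO and 15 in A10i against sham mice, and 0 fell. Of 10 fibroblast markers, 5 rose in DMSO and 9 in A10i against sham mice, and their summed level was 33245 to 36015 in sham, 57897 to 191181 in DMSO and 136021 to 259493 in A10i mice. The difference between these counts was not tested.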
